A study of Homo sapiens with 4 samples.

Results

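Heterogeneous nuclear ribonucleoproteins (hnRNPs) and related splicing repressors were followed across the deposited RNA-seq libraries by taking every row that carries 1 of 33 gene names. All 33 names were found among 58735 genes, on 34 rows, because MATR3 is listed under 2 Ensembl identifiers; it is described by the row with more counts. The cells were HCT116, an established human colon cancer line, kept in McCoy's 5A medium with serum. Group control_sh (labelled Control sh) carried a control shRNA and group RBM25_sh (labelled RBM25 sh) an shRNA against RBM25, with 2 libraries each, and total RNA was sequenced from all 4. The sources used here do not say whether the 2 libraries of a group came from separate cultures, which shRNA sequences were used, how they were delivered or how long they acted. The p-values therefore measure only how much these libraries vary, and that variation may be technical.

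hnRNPs coat nascent transcripts in the nucleus. Many of them bind short silencer elements in exons or introns and keep the splicing machinery off nearby splice sites, while others act on transcript stability, export and translation. The genes fall into families of paralogs that bind similar sequences, and several of the proteins control the splicing of their own or of each other's transcripts, partly through exons that lead to decay. RBM25, the targeted gene, encodes a splicing regulator that works with the U1 small nuclear ribonucleoprotein. Counts here are per gene, so transcript forms were not measured, and in bulk RNA a change in the cells present and a change in RNA per cell cannot be told apart.

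Library totals ran from 15528274 to 16982663 counts, and the 33 genes took 0.938% to 1.11% of them. RBM25 was measured at 155.3 and 114.9 CPM (counts divided by library total and TMM factor) in control_sh and at 44.0 and 35.7 CPM in RBM25_sh. This is 135 ± 28.6 against 39.9 ± 5.90 CPM (mean ± SD, n = 2 each), a log2 fold change of -1.76 ± 0.30 (SE) with an edgeR quasi-likelihood adjusted p of 0.0195. That call was lost without replicate 1 of RBM25_sh (adjusted p 0.0797) and without replicate 2 of RBM25_sh (adjusted p 0.152), each of which leaves that group with 1 library. Among 8 colon epithelial markers, KRT8 was highest and CEACAM5 and VIL1 were near 0, and the list summed to 3460 to 5554 CPM. A list of 13 markers of other cells summed to 38.5 to 66.0 CPM, nearly all from COL1A1 at 37.1 to 62.0 CPM, and CD3E, COL1A2 and INS were at 0 counts in all libraries.

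Replicates of a group were further apart than counting alone gives (chi-square over its degrees of freedom, 62.5 in control_sh and 24.6 in RBM25_sh), and the difference followed the GC content of the transcripts. Across 13175 genes, the log2 CPM difference of replicate 2 from replicate 1 correlated with GC content at a Spearman rho of 0.79 in control_sh and 0.77 in RBM25_sh, given as a description over genes of shared libraries. Member results are therefore given from the edgeR fit and, where the call or sign differs or the value moves by over 1.5 times, also from the same fit with each library's smooth trend on GC content removed. This second fit is called GC-corrected below. Across the same genes the log2 fold change between groups also correlated with GC content, at a Spearman rho of -0.26. The trend was fitted to each library, so the correction takes out this trend between groups as well. How much each trend moved the values of single members was not tested.

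Most of the 33 genes were abundant in these cells. All of them passed the filter on low counts; levels between genes are compared by deposited FPKM, which divides counts by gene length. Their mean FPKM lay at a median percentile of 92.9 among the 16091 genes tested, and 19 were in the top 10%. Of the 33, 23 had a mean above 20, and 4 had a mean above 100. These were HNRNPA1, HNRNPK, HNRNPA2B1 and HNRNPA3. PTBP2, PCBP3 and MATR3 were under 2 FPKM. The plot of member levels by library shows this range.

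**Figure D1:**
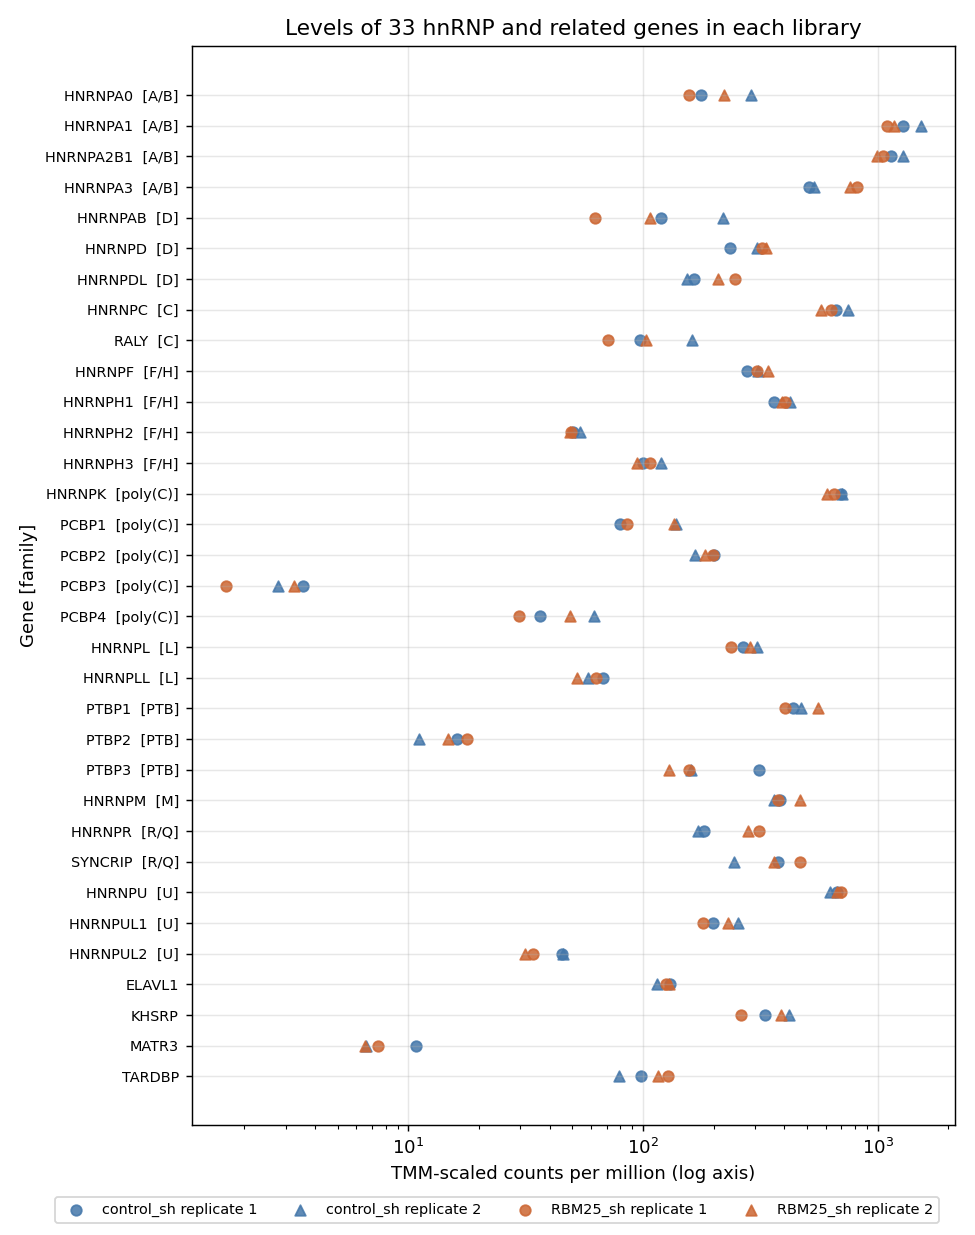
Level of each of the 33 genes in each library, as TMM-scaled CPM on a log axis, grouped by family. Blue is control_sh and orange RBM25_sh, with circles for replicate 1 and triangles for replicate 2. HNRNPA1 lies highest, at 1097 to 1525 CPM, and PCBP3 lowest, at 1.68 to 3.54 CPM.

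No member passed the edgeR test in either direction. Of all genes tested, 3.05% passed, 0.653% as higher and 2.4% as lower in RBM25_sh. DESeq2's Wald test, which called 6.5% of its genes, and limma-voom, which called 2.32%, also called 0 members. At an unadjusted edgeR p under 0.05 there were 3 members, HNRNPA3, HNRNPAB and HNRNPR, which is 9.09% against 21.4% of all genes. The smallest adjusted p was 0.147, for HNRNPR. The log2 fold changes ran from -0.99 to 0.74, were above 0 for 15 members and below 0 for 18, and had a median of -0.12, beside a median of -0.04 over all genes, of which 47.5% were above 0. With library totals in place of TMM scaling, 9 members were above 0 and the median of all genes was -0.15. In the edgeR fit with TMM scaling, the members' median size without sign was 0.24. It was 0.42 for all genes and 0.33 for the 1610 genes in the top 10% of FPKM levels. For 20 of the 33 members the 95% interval stayed within a log2 change of 1 in either direction, so changes beyond 2-fold lay outside it; for the other 13 a 2-fold difference was not excluded at this replication. Median SE was 0.27.

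In 14 members (42.4%) the 2 groups did not overlap in CPM, against 51.8% of all genes. Of these, 6 were higher in RBM25_sh (HNRNPA3, HNRNPD, HNRNPDL, HNRNPR, HNRNPU and TARDBP; 23.9% of all genes) and 8 were lower (HNRNPA1, HNRNPA2B1, HNRNPAB, HNRNPC, HNRNPH2, HNRNPK, HNRNPUL2 and PTBP3; 27.9% of all genes). Both shares of the members lie below the background. After GC correction 13 members (39.4%) did not overlap, against 66.6% of all genes. HNRNPA1, HNRNPA3, HNRNPC, HNRNPD, HNRNPH2 and HNRNPU overlapped then, and HNRNPLL, HNRNPM, MATR3, RALY and SYNCRIP no longer did. For HNRNPA1, HNRNPA3, HNRNPC, HNRNPD, HNRNPH2 and HNRNPU the correction set the 2 control_sh libraries further apart than before. It did so too for HNRNPA0, HNRNPA2B1, HNRNPDL, HNRNPF, HNRNPH1, HNRNPH3, HNRNPK, HNRNPLL, HNRNPM, HNRNPR, HNRNPUL2, PCBP3 and PTBP1. The control_sh libraries of the remaining members, HNRNPAB and PTBP3 among them, came closer together. With the GC-corrected edgeR fit, HNRNPDL passed as higher and HNRNPAB and PTBP3 passed as lower, while 28.1% of all genes passed, 12.8% as higher and 15.4% as lower. These 3 of 33 members (9.09%) are a smaller share than that of all genes. The sign differed from the uncorrected fit for HNRNPD, HNRNPH1, HNRNPU and HNRNPUL1. Under that fit 29 of the 33 intervals stayed within a log2 change of 1.

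**Figure D2:**
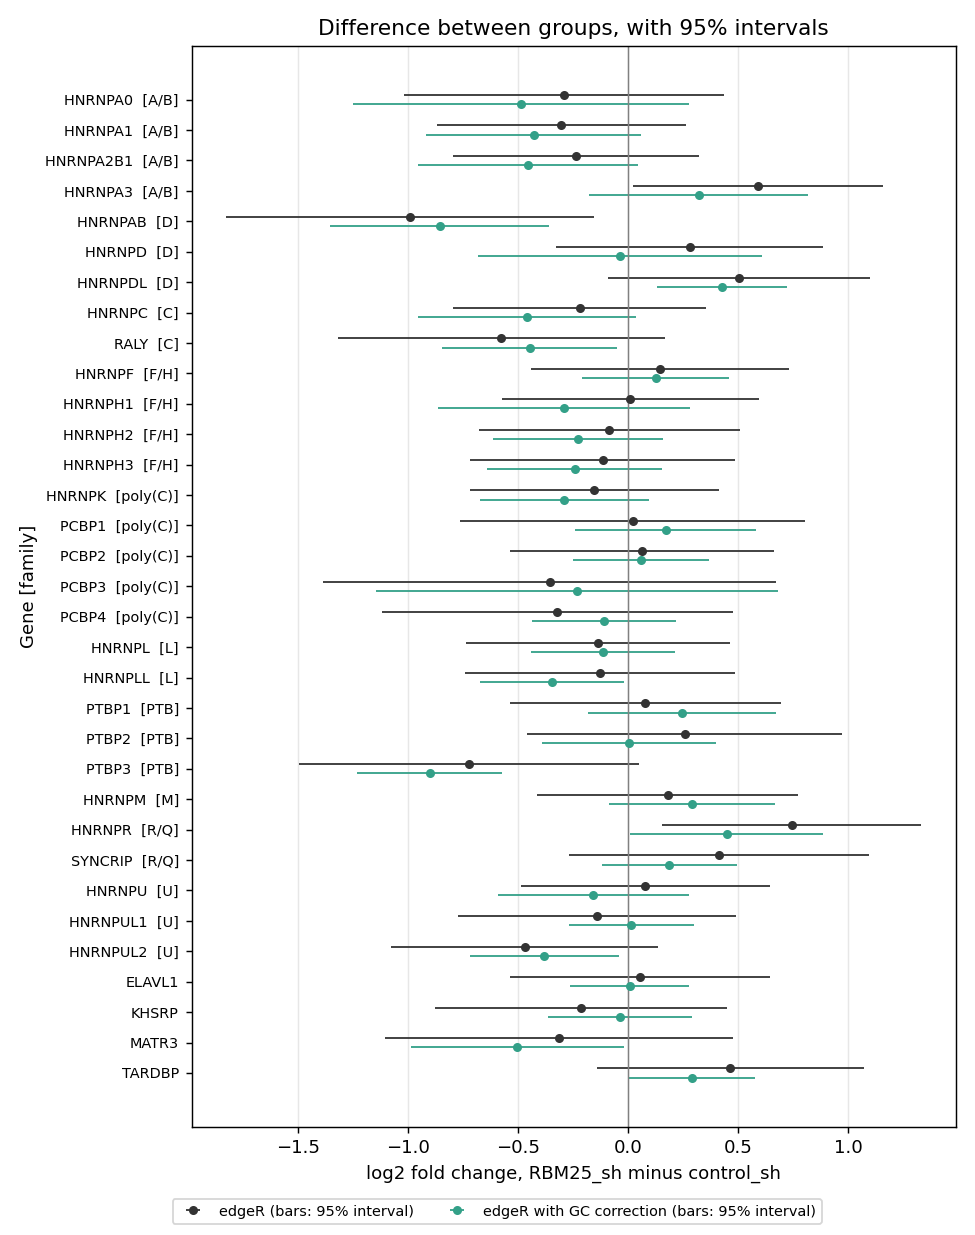
Log2 fold change of each of the 33 genes, RBM25_sh minus control_sh, with 95% intervals, from edgeR (black) and from edgeR with GC correction (green). Points run from -0.99 for HNRNPAB to 0.74 for HNRNPR in the first fit, and the intervals of most genes cross 0 in both.

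The A/B family holds the best known silencer-binding hnRNPs. HNRNPA1 (chromosome 12, 54280193 to 54287088, plus strand, GRCh38) encodes the prototype repressor of exon inclusion. It measured 1277 and 1525 CPM in control_sh and 1097 and 1173 CPM in RBM25_sh, with a log2 fold change of -0.30 ± 0.25 and an edgeR adjusted p of 0.53. Its groups did not overlap in CPM, but the 95% interval of -0.87 to 0.26 spans 0. After GC correction the log2 fold change was -0.43 ± 0.22, with overlapping groups. The corrected CPM were 1182 and 1766 in control_sh, further apart than before, and 986.1 and 1205 in RBM25_sh. HNRNPA2B1, which also takes part in RNA sorting, had 1139 and 1275 CPM in control_sh and 1055 and 992.3 CPM in RBM25_sh. Its log2 fold change of -0.24 ± 0.25 was -0.45 ± 0.22 after GC correction. The corrected groups were separated by a small margin, at 1018.88 CPM in control_sh replicate 1 and 1018.82 CPM in RBM25_sh replicate 2. HNRNPA3 (chromosome 2, 177212563 to 177223958, plus strand), a close paralog of both, had the opposite sign. It measured 511.3 and 537.4 CPM in control_sh and 813.3 and 764.2 CPM in RBM25_sh, or 524 ± 18.5 against 789 ± 34.7 CPM, a 1.504-fold higher level. Both RBM25_sh libraries stood above both control libraries, but the test was not passed (log2 fold change 0.59 ± 0.25, edgeR adjusted p 0.218). The GC-corrected log2 fold change was 0.32 ± 0.22, with overlapping groups. That correction set the control_sh libraries further apart, at 446.8 and 719.0 CPM, beside 674.4 and 781.4 CPM in RBM25_sh. HNRNPA0, which binds AU-rich elements, had 175.8 and 287.1 CPM in control_sh and 157.1 and 221.5 CPM in RBM25_sh. Its replicate 2 was the higher in each group, and the groups overlapped, with a log2 fold change of -0.29 ± 0.32 (-0.49 ± 0.34 GC-corrected).

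In the A/B family the shares of HNRNPA1, HNRNPA2B1 and HNRNPA3 did not overlap between groups. HNRNPA1 held 52.4% and 53.6% of the family's summed FPKM in control_sh and 44.7% and 47.1% in RBM25_sh. HNRNPA3 held 17.7% and 15.9% in control_sh and 28.0% and 25.9% in RBM25_sh. The HNRNPA1 to HNRNPA3 ratio of FPKM was 2.96 and 3.36 in control_sh and 1.60 and 1.82 in RBM25_sh, so the ranges do not touch. The ratio of HNRNPA1 to HNRNPA2B1 was 2.04 and 2.18 in control_sh and 1.89 and 2.15 in RBM25_sh, and overlapped. Shares and ratios are given as a description and were not tested. An exact permutation test of 2 libraries against 2 has a smallest two-sided p of 0.333, reached whenever the groups do not overlap. Of the 18 paralog pairs compared, HNRNPA1/HNRNPA3, HNRNPDL/HNRNPAB, HNRNPD/HNRNPAB, HNRNPH1/HNRNPH2, HNRNPH1/HNRNPH3, HNRNPU/HNRNPUL2 and PCBP1/PCBP4 did not overlap in ratio. The share among other pairs of genes was not computed, so whether paralogs separate more often was not tested.

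The D family contains the AU-rich element binding proteins, of which HNRNPD (AUF1) is known for promoting mRNA decay. HNRNPD and HNRNPDL lie close together on the minus strand of chromosome 4, at 82352498 to 82374503 and 82422564 to 82430408, and HNRNPAB lies on chromosome 5 at 178204507 to 178211163, plus strand. The 3 promoters are shown because HNRNPDL and HNRNPAB passed in opposite directions with GC correction, and HNRNPD is the neighbour of HNRNPDL. Each is the 250 bases before the RefSeq gene start, GRCh38.p14, 5′ to 3′ on the gene's strand. Each RefSeq start lies inside the gene as the deposited tables list it, and for HNRNPD the whole window does. Capitals mark matches, on either strand, to the GC box (GGGCGG), the CCAAT box (CCAAT), the E-box (CACGTG), the TATA box (TATAAA) or the ETS motif (CCGGAAG).

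HNRNPD, chr4:82373992-82374241, minus strand: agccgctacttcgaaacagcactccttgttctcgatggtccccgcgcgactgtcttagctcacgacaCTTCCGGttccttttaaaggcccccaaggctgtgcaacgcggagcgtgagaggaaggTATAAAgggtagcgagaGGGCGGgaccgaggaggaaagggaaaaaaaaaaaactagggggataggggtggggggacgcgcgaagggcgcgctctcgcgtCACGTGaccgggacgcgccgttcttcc

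HNRNPDL, chr4:82430226-82430475, minus strand: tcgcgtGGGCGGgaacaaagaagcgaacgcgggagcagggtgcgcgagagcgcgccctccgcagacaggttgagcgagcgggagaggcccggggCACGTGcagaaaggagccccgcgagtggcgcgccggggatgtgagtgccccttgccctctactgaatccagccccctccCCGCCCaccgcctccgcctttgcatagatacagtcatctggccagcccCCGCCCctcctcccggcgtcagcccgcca

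HNRNPAB, chr5:178204283-178204532, plus strand: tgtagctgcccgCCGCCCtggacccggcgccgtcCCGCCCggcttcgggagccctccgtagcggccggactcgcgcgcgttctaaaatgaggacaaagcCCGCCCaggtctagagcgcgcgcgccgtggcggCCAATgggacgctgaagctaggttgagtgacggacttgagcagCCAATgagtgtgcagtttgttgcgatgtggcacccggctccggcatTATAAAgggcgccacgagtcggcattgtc

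In this window HNRNPD holds an ETS motif, a TATA box, a GC box and an E-box. HNRNPDL holds 3 GC boxes and an E-box, and HNRNPAB holds 3 GC boxes, 2 CCAAT boxes and a TATA box. HNRNPAB, which binds AU-rich and single-stranded sequences, measured 119.2 and 218.1 CPM in control_sh and 62.6 and 107.2 CPM in RBM25_sh. Every RBM25_sh library lay below every control library, but the replicates of each group also differed widely. The means were 169 ± 69.9 and 84.9 ± 31.6 CPM, 1.99-fold lower in RBM25_sh, with a log2 fold change of -0.99 ± 0.37 and an edgeR adjusted p of 0.168. After GC correction the log2 fold change was -0.86 ± 0.22 (edgeR adjusted p 0.0201). The value depended on single libraries. It was -1.36 (edgeR adjusted p 0.00106) without control_sh replicate 1, where 9.89% of all genes passed as lower, and -0.49 (adjusted p 0.439) without control_sh replicate 2, where 4.48% did. It was -0.65 and -1.40 without replicate 1 and replicate 2 of RBM25_sh, and neither passed.

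HNRNPDL, a paralog of HNRNPD, had 165.3 and 154.4 CPM in control_sh and 245.5 and 208.0 CPM in RBM25_sh, or 160 ± 7.71 against 227 ± 26.5 CPM. The groups did not overlap and the mean was 1.42-fold higher in RBM25_sh. The log2 fold change was 0.50 ± 0.27 (edgeR adjusted p 0.311), and 0.43 ± 0.13 (adjusted p 0.0387) after GC correction. HNRNPD had 234.6 and 304.9 CPM in control_sh and 322.5 and 332.7 CPM in RBM25_sh, a log2 fold change of 0.28 ± 0.27 that was -0.04 ± 0.29 after GC correction, so its direction is not settled.

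Within the D family, HNRNPAB held 46.6% and 58.6% of summed FPKM in control_sh and 24.3% and 36.9% in RBM25_sh, with HNRNPD and HNRNPDL both holding more in RBM25_sh. HNRNPDL held 25.3% and 16.2% in control_sh and 37.3% and 28.0% in RBM25_sh. The HNRNPDL to HNRNPAB ratio was 0.543 and 0.277 in control_sh and 1.54 and 0.760 in RBM25_sh. That is a difference of 1.48 on the log2 scale, the largest among the 18 paralog pairs compared, and in each group replicate 2 had the lower ratio. HNRNPDL and HNRNPAB differ in transcript GC content (44.6% and 54.2%), and the part of GC content in this ratio was not tested.

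**Figure D3:**
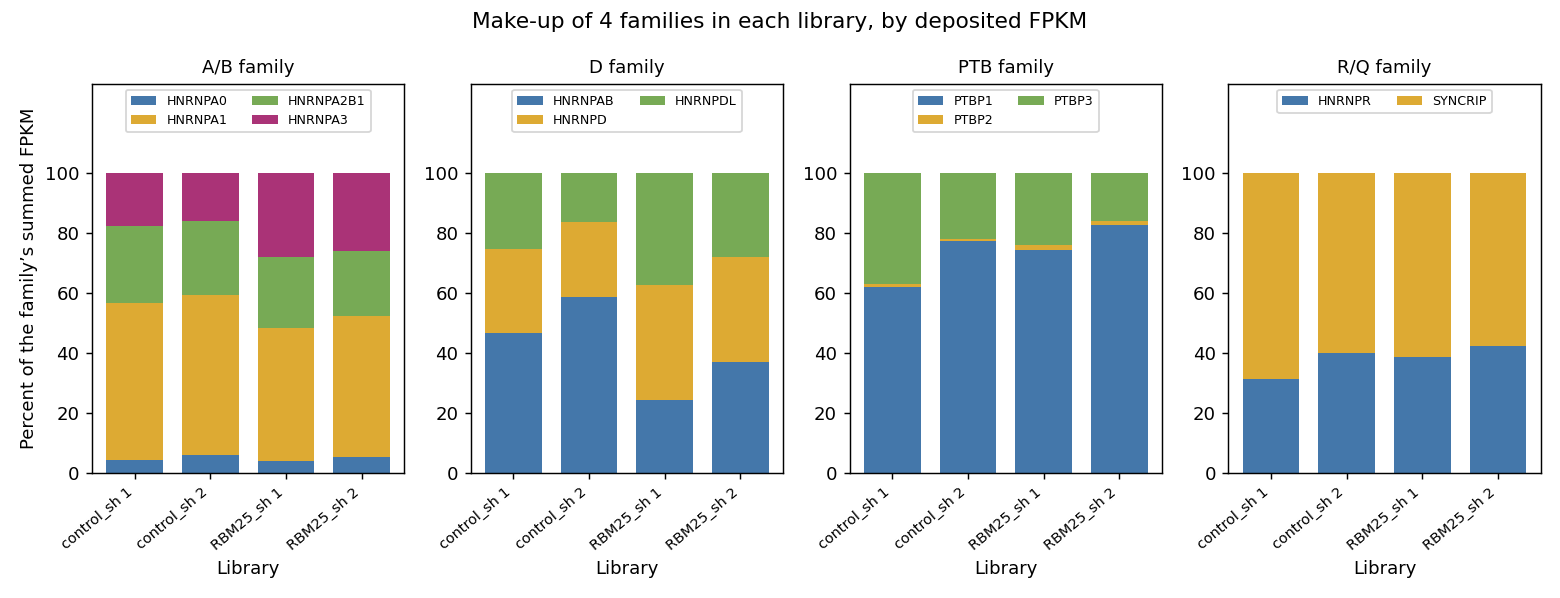
Share of each family's summed FPKM held by each paralog, in percent, for the A/B, D, PTB and R/Q families in the 4 libraries. HNRNPA3 takes 15.9% to 17.7% of the A/B family in control_sh and 25.9% to 28.0% in RBM25_sh, and HNRNPAB takes a smaller share of the D family in RBM25_sh, while the R/Q shares overlap.

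HNRNPC binds uridine tracts and is known for keeping exons that arise from Alu elements out of transcripts. It measured 663.6 and 746.0 CPM in control_sh and 634.8 and 575.1 CPM in RBM25_sh, a log2 fold change of -0.22 ± 0.26. The groups did not overlap, by a small margin, and did overlap after GC correction, with a value of -0.46 ± 0.22. That overlap was also small, with 589.66 CPM in control_sh replicate 1 and 589.76 CPM in RBM25_sh replicate 2. RALY, its relative, had 96.8 and 161.8 CPM in control_sh and 71.2 and 102.4 CPM in RBM25_sh, with a log2 fold change of -0.58 ± 0.33 and an edgeR adjusted p of 0.353. RALY passed without control_sh replicate 1 (-0.90, adjusted p 0.0484) and was at -0.16 without control_sh replicate 2. HNRNPC held 82.6% to 90.2% of this pair's FPKM in all libraries.

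The F/H family binds runs of G and can promote or repress exons. Without GC correction, differences between groups in this family were smaller than their SE. HNRNPF had 276.9 and 308.3 CPM in control_sh and 304.9 and 341.5 CPM in RBM25_sh, and HNRNPH1 had 362.2 and 424.6 CPM in control_sh and 401.3 and 391.3 CPM in RBM25_sh. The HNRNPH1 log2 fold change was 0.01 ± 0.26, with a 95% interval of -0.57 to 0.59 and a GC-corrected value of -0.29 ± 0.25. HNRNPH2 had 50.5 and 53.7 CPM in control_sh and 49.4 and 48.7 CPM in RBM25_sh. Its log2 fold change was -0.08 ± 0.26, and -0.23 ± 0.17 after GC correction. The HNRNPH3 values overlapped, with 99.5 and 118.7 CPM in control_sh and 107.0 and 94.4 CPM in RBM25_sh, a log2 fold change of -0.12 ± 0.27 (-0.24 ± 0.18 GC-corrected). Per length, HNRNPF was the leading member, at 51.0% to 56.5% of the family's FPKM.

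HNRNPK and the PCBP proteins carry KH domains and bind C-rich sequence. HNRNPK, which also acts in transcription, had 699.9 and 703.7 CPM in control_sh and 653.0 and 609.4 CPM in RBM25_sh, with a log2 fold change of -0.15 ± 0.25 and a 95% interval of -0.72 to 0.41; the GC-corrected value was -0.29 ± 0.17. PCBP1 had 79.5 and 138.1 CPM in control_sh and 85.1 and 135.7 CPM in RBM25_sh. Its replicates differed more than its groups did, and its log2 fold change was 0.02 ± 0.35 (0.17 ± 0.18 GC-corrected). PCBP2 had 199.5 and 166.4 CPM in control_sh and 198.8 and 183.4 CPM in RBM25_sh. PCBP4 had 36.5 and 61.5 CPM in control_sh and 29.5 and 48.9 CPM in RBM25_sh, with replicate 2 again the higher and a log2 fold change of -0.32 ± 0.36 (-0.11 ± 0.14 GC-corrected). The PCBP1 to PCBP4 ratio of FPKM was 4.65 and 4.80 in control_sh and 6.17 and 5.92 in RBM25_sh, without overlap. PCBP3 was at 1.68 to 3.54 CPM and is the least precise member, with a log2 fold change of -0.36 ± 0.46 (-0.23 ± 0.41 GC-corrected).

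HNRNPL, which binds CA repeats, and its paralog HNRNPLL, known from exon skipping in lymphocytes, overlapped between groups in CPM. HNRNPL had 267.6 and 306.3 CPM in control_sh and 236.3 and 285.2 CPM in RBM25_sh. HNRNPLL had 67.7 and 58.4 CPM in control_sh and 63.3 and 52.2 CPM in RBM25_sh, a log2 fold change of -0.13 ± 0.27. After GC correction HNRNPLL was at -0.35 ± 0.15 without overlap, and the test was not passed (edgeR adjusted p 0.105).

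The PTB proteins bind CU-rich tracts and repress many exons. PTBP1 is the form of most non-neuronal cells and keeps PTBP2, the neuronal form, low by causing an exon of its transcript to be skipped. PTBP1 had 436.2 and 472.1 CPM in control_sh and 404.2 and 554.9 CPM in RBM25_sh, a log2 fold change of 0.08 ± 0.28 with a 95% interval of -0.54 to 0.69 and a GC-corrected value of 0.24 ± 0.19. PTBP2 was low in all libraries, with 16.1 and 11.0 CPM in control_sh and 17.8 and 14.7 CPM in RBM25_sh, a log2 fold change of 0.26 ± 0.32 (0.00 ± 0.18 GC-corrected). The PTBP1 to PTBP2 ratio of FPKM was 50.8 and 80.3 in control_sh and 42.8 and 70.9 in RBM25_sh, and overlapped.

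PTBP3, a paralog known as a regulator of differentiation, is at chromosome 9, 112217716 to 112333667, minus strand. Its promoter is shown because PTBP3 had the smallest GC-corrected adjusted p of the 33 genes. Capitals mark GC boxes, and the whole window lies inside the gene as listed.

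PTBP3, chr9:112333027-112333276, minus strand: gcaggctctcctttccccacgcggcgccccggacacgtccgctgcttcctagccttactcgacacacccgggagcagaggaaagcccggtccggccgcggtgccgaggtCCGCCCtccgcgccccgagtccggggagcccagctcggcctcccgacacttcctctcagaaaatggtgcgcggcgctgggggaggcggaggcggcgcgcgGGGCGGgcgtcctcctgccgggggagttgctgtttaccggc

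PTBP3 had 310.6 and 159.4 CPM in control_sh and 156.2 and 128.6 CPM in RBM25_sh. Control replicate 1 stood far above the other 3 libraries, and control replicate 2 lay just above the higher RBM25_sh library. The means were 235 ± 106.9 and 142 ± 19.5 CPM, with a log2 fold change of -0.72 ± 0.35 and an edgeR adjusted p of 0.265. Without control_sh replicate 1 the log2 fold change was -0.16 (adjusted p 0.79), and without control_sh replicate 2 it was -1.12 (adjusted p 0.0085). With GC correction the CPM were 270.2 and 215.9 in control_sh and 128.8 and 131.4 in RBM25_sh. That fit gave -0.90 ± 0.15 with a 95% interval of -1.23 to -0.57 and an edgeR adjusted p of 0.00305. PTBP3 held 36.8% and 21.8% of the PTB family's FPKM in control_sh and 24.0% and 16.0% in RBM25_sh, which overlap.

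HNRNPR and SYNCRIP (hnRNP Q) are paralogs with an acidic amino-terminal domain that act in splicing, mRNA transport and translation. HNRNPR lies on the minus strand of chromosome 1, 23303771 to 23344336. It had 181.9 and 171.6 CPM in control_sh and 310.8 and 280.5 CPM in RBM25_sh. The groups stood well apart, at 177 ± 7.31 and 296 ± 21.5 CPM, a 1.67-fold higher level. The log2 fold change of 0.74 ± 0.26 had an edgeR adjusted p of 0.147, and the GC-corrected value was 0.45 ± 0.19 with an adjusted p of 0.114. SYNCRIP had 376.6 and 243.8 CPM in control_sh and 465.9 and 360.5 CPM in RBM25_sh, a log2 fold change of 0.41 ± 0.30 with overlapping groups. The GC-corrected value was 0.19 ± 0.14, without overlap. Their ratio overlapped as well, so a shift between these paralogs was not seen beyond the replicate spread.

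HNRNPU is a nuclear scaffold protein that binds RNA and chromatin. It had 667.1 and 624.5 CPM in control_sh and 696.8 and 667.3 CPM in RBM25_sh; these groups are separated by less than 1 CPM, and the log2 fold change was 0.08 ± 0.25, or -0.16 ± 0.19 with overlapping groups after GC correction. HNRNPUL1 and HNRNPUL2 are its paralogs and take part in the DNA damage response. HNRNPUL1 had 198.8 and 254.8 CPM in control_sh and 180.2 and 231.0 CPM in RBM25_sh, a log2 fold change of -0.14 ± 0.28 (0.02 ± 0.13 GC-corrected). HNRNPUL2 had 45.03 and 45.41 CPM in control_sh and 33.8 and 31.5 CPM in RBM25_sh, and the small spread within groups set it apart from most members. Its means were 45.2 ± 0.27 and 32.7 ± 1.67 CPM, 1.38-fold lower, with a log2 fold change of -0.47 ± 0.27 and an edgeR adjusted p of 0.353. The HNRNPU to HNRNPUL2 ratio of FPKM was 3.56 and 3.31 in control_sh and 4.95 and 5.10 in RBM25_sh, without overlap.

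Among the members outside these families, HNRNPM, which binds GU-rich sequence, had 382.6 and 361.1 CPM in control_sh and 376.9 and 465.2 CPM in RBM25_sh, a log2 fold change of 0.18 ± 0.26 (0.29 ± 0.17 GC-corrected). KHSRP, a promoter of AU-rich mRNA decay, had 332.3 and 420.4 CPM in control_sh and 261.4 and 387.5 CPM in RBM25_sh, a log2 fold change of -0.21 ± 0.30 (-0.04 ± 0.15 GC-corrected). Both overlapped between groups in CPM, and HNRNPM did not after GC correction. TARDBP, which binds UG repeats and blocks cryptic exons, had 97.5 and 78.9 CPM in control_sh and 127.6 and 115.7 CPM in RBM25_sh. Its groups did not overlap, and its log2 fold change was 0.46 ± 0.27 (edgeR adjusted p 0.36), or 0.29 ± 0.13 after GC correction (adjusted p 0.116). Of the 50-base words in its longest transcript 31.3% occur in other genes, chiefly AL109811.4, which overlaps 28.99% of its exon bases on the same strand and had 0 counts. ELAVL1 (HuR), which stabilises AU-rich mRNAs, had 130.8 and 114.3 CPM in control_sh and 125.6 and 128.8 CPM in RBM25_sh, a log2 fold change of 0.05 ± 0.26 (0.01 ± 0.12 GC-corrected).

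MATR3, a nuclear matrix protein that represses exons together with PTB, was listed at only 10.8 and 6.58 CPM in control_sh and 7.44 and 6.50 CPM in RBM25_sh, a log2 fold change of -0.31 ± 0.35 (-0.50 ± 0.21 GC-corrected). Its 2 identifiers, ENSG00000015479 and ENSG00000280987, lie on the same strand, and 42.5% of the exon bases of the first and 80.9% of the second overlap the other. Counts on the first were 170 and 118 in control_sh and 111 and 102 in RBM25_sh, and counts on the second were 17 and 5 in control_sh and 10 and 7 in RBM25_sh. The part of this overlap in the low level was not tested, and the MATR3 values are uncertain for that reason.

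The replicate difference with GC content ran through the members too. Transcript GC content of the 33 genes ran from 34.7% for PTBP2 to 61.7% for PTBP1, with a median of 43.0% against 48.7% over all genes. The Spearman correlation of GC content with the log2 CPM difference of replicate 2 from replicate 1 was 0.43 in control_sh and 0.73 in RBM25_sh, across 33 genes that share the same libraries. The sign of that difference was the same in both groups in 22 of 33 members. In the 14 members with at least 45% GC the median difference was 0.17 in control_sh and 0.41 in RBM25_sh. In the 19 members under 45% it was 0.01 and -0.14. HNRNPAB, PCBP1 and RALY, at 53.8% to 55.2% GC, were higher in replicate 2 of both groups, and PTBP3 and SYNCRIP, at 36.6% and 36.3%, were lower. Others went against the trend. HNRNPA0, at 41.1%, was higher in replicate 2 of both groups, and HNRNPM and PCBP3, at 54.9% and 59.2%, were lower in control_sh. In control_sh, 9 of the 19 members under 45% and 4 of the other 14 were lower in replicate 2. The log2 fold change between groups correlated with GC content at a Spearman rho of -0.37 across the 33 genes. With GC-corrected values the rho was 0.10.

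**Figure D4:**
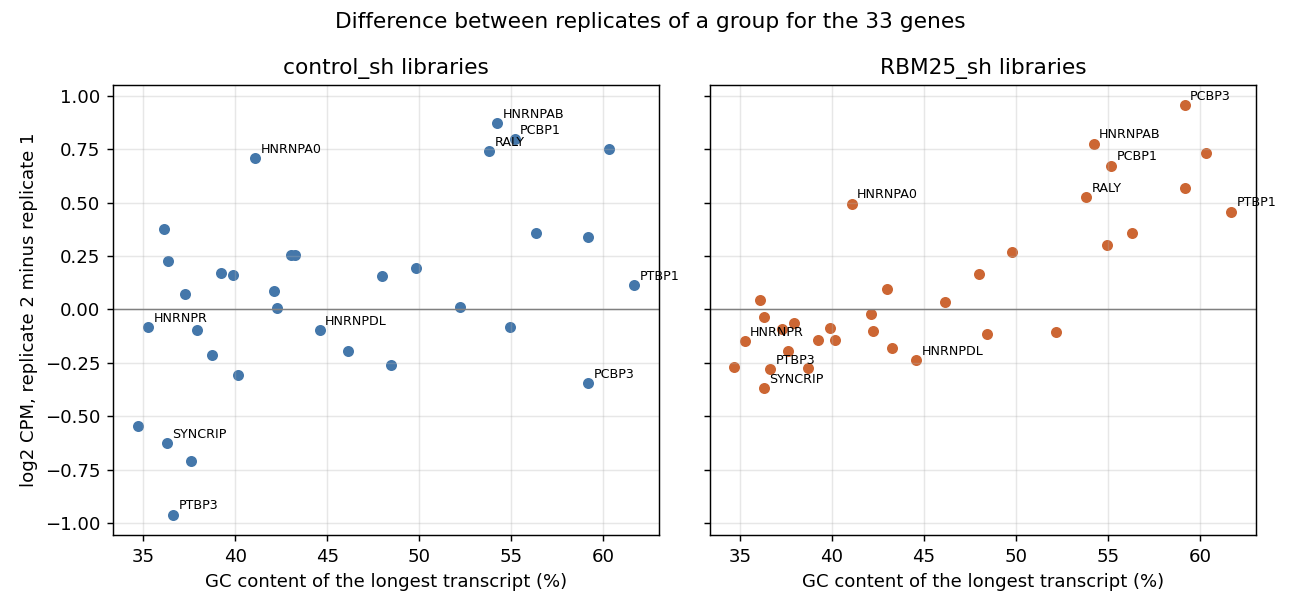
Difference in log2 CPM of replicate 2 from replicate 1 against the GC content (percent) of the longest transcript for the 33 genes, in control_sh on the left and RBM25_sh on the right, 1 point per gene. Points rise with GC content, with a Spearman correlation of 0.43 on the left and 0.73 on the right.

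Several members share sequence or exon bases with other counted genes, which limits how surely their counts belong to them, since the strand setting of the counting is not given in the sources used here. The share of 50-base words of the longest transcript that occur in other genes was highest for PCBP2 (72.1%), PCBP1 (46.9%), HNRNPUL2 (45.2%), MATR3 (36.5%) and TARDBP. HNRNPA1 followed (29.1%). These words were sought in all other genes, with or without counts. The tables hold 76 rows named as copies of HNRNPA1, most of them annotated as processed pseudogenes. The 27 copies with counts summed to 2555 counts, 3.10% of the 82313 counts on HNRNPA1. The copy with most counts, HNRNPA1P48, is annotated as protein-coding, as is HNRNPA1L2. HNRNPA1P48 had 286 and 441 in control_sh and 272 and 264 in RBM25_sh. HNRNPA1P10 had 130 and 160 in control_sh and 88 and 93 in RBM25_sh, and HNRNPA1L2 had 103 and 96 in control_sh and 42 and 71 in RBM25_sh. Copies of HNRNPC, HNRNPK and HNRNPA3 summed to 1.57%, 1.01% and 0.973% of their parents' counts. HNRNPCP2 stood at 286 in control_sh replicate 2 and at 84 to 107 in the other 3 libraries, while HNRNPKP4 ranged from 80 to 138 and HNRNPLP2 from 46 to 77.

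Exons of 8 members overlap another gene with over 100 counts. For PCBP1 the antisense gene PCBP1-AS1 covers 52.2% of exon bases and had 1598 counts, for PCBP2 it is MAP3K12 at 18.8%, for HNRNPU it is COX20 at 15.6%, and for HNRNPAB it is PHYKPL at 9.14%. HNRNPA2B1, HNRNPH3, HNRNPUL1 and PCBP4 overlap CBX3, RUFY2, TGFB1 and ABHD14B by 1.39% to 3.97%. On the same strand, HNRNPUL2 shares 44.1% of its exon bases with the readthrough gene HNRNPUL2-BSCL2, which had 15 counts. PTBP3 and HNRNPDL share no exon bases with a counted gene.

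The members' promoters were GC-rich. RefSeq promoter sequences were matched for 30 of the 33 genes (not HNRNPA1, PCBP3 or ELAVL1), with a median GC content of 66% against 58% over 27305 promoters. Promoter GC content was not computed for the tested genes alone. On either strand, GGGCGG occurred in 26 of 30 (86.7%), against 42.3% of all promoters and 67.3% of the 10771 promoters of genes tested here. CCAAT occurred in 15 (50%, against 33.04% and 34.9%) and CACGTG in 6 (20%, against 6.49% and 8.88%). TATAAA was found in 3 (10%, against 11.1% and 5.44%) and CCGGAAG in 5 (16.7%, against 8.82% and 15.4%). TGACGTCA, the CRE motif, was in none of the 30 windows, against 1.77% of all promoters and 2.78% of those of genes tested. These are counts of letters in a 250-base window and do not show binding.

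Other RNA-binding regulators of the same pathways were read from the same edgeR fit. Of 6 genes of paraspeckle and related RNA-binding proteins, all tested, 0 passed in either direction, against 3.05% of all genes. TAF15, a nuclear RNA-binding protein, had 194.2 and 363.1 CPM in control_sh and 121.6 and 124.1 CPM in RBM25_sh, with a log2 fold change of -1.18 ± 0.33 and an adjusted p of 0.0873. SFPQ, a paraspeckle and splicing protein, had 312.0 and 276.4 CPM in control_sh and 523.6 and 527.5 CPM in RBM25_sh, with 0.84 ± 0.26 and an adjusted p of 0.111. With GC correction both passed, TAF15 as lower (-1.10 ± 0.22, edgeR adjusted p 0.0079) and SFPQ as higher (0.84 ± 0.14, edgeR adjusted p 0.0037). Of all genes, 15.4% passed as lower and 12.8% as higher in that fit. EWSR1 had a log2 fold change of 0.21, with an adjusted p of 0.71. This list had a median log2 fold change of 0.20, with 5 of 6 above 0.

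Of 38 further splicing and RNA-binding regulators, 29 had enough counts to be tested. Of these 29, 1 passed as higher and 0 as lower, against 0.653% and 2.4% of all genes. The gene that rose was FUBP1, which binds single-stranded DNA and splicing enhancers, at 111.9 and 95.3 CPM in control_sh and 258.3 and 220.1 CPM in RBM25_sh. The log2 fold change was 1.21 ± 0.27 (edgeR adjusted p 0.0481). This call was lost without replicate 1 (adjusted p 0.469) or replicate 2 (adjusted p 0.194) of RBM25_sh, and also with library totals only (0.057) and limma-voom (0.0511). NOVA2, a neuronal splicing regulator, had 15.1 and 13.9 CPM in control_sh and 6.77 and 7.26 CPM in RBM25_sh, with a log2 fold change of -1.05 ± 0.30 and an adjusted p of 0.0916. ESRP1, which sets epithelial exon choices, had 372.2 and 271.0 CPM in control_sh and 210.9 and 205.2 CPM in RBM25_sh, and CIRBP, a cold-induced RNA-binding protein, had 127.9 and 273.7 CPM in control_sh and 99.9 and 127.6 CPM in RBM25_sh. Neither passed, with adjusted p of 0.231 and 0.237. With GC correction 5 of the 29 passed as lower and 1, FUBP1, as higher, against 15.4% and 12.8% of all genes. NOVA2 (-0.90 ± 0.24, edgeR adjusted p 0.0236), ESRP1 (-0.72 ± 0.14, adjusted p 0.0061) and CIRBP (-0.59 ± 0.19, adjusted p 0.0472) were among the 5. The median log2 fold change of the 29 was 0.04, with 16 above 0.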

How the data were processed

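Total RNA of 4 HCT116 libraries, 2 per group by the sample titles, was extracted with TRIzol and cleaned on columns, per the labels' protocols. The authors deposited, per library, 1 table of raw counts per gene and 1 table of FPKM per gene. Tools named without roles, per the submitters' processing notes, are TopHat2 2.0.9 and Bowtie2 2.0.6, and Cuffdiff 2.1.1 with Cufflinks 2.1.1. The counter, its strand setting and the build were not given in the sources used here. All 58735 identifiers have the GENCODE 29 (GRCh38) positions, and 27 names held as dates were restored by identifier. The deposited FPKM equal the counts over the listed length and 1 factor per library.

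Counts were tested with edgeR 4.0.16 in R 4.3.3: filterByExpr, TMM, quasi-likelihood F test, group as the only term, two-sided, Benjamini-Hochberg over 16091 genes, threshold 0.05, with 2 residual degrees of freedom. GC correction used offsets from a lowess trend (span 0.3) on transcript GC content (longest GENCODE 29 form), known for 99.95% of genes tested. DESeq2 1.42.0, limma 3.58.1, other scalings, filters, left-out libraries and log2(FPKM + 1) and log2(FPKM + 0.1) were alternatives. The edgeR fit, with and without GC correction, was also run on simulated counts, and no result here rests on that run. The other fits were not simulated. The members, lists and alternatives were chosen with earlier results of these data known. Named genes are all members, RBM25, up to 4 genes per list by adjusted p, and up to 6 copies with over 100 counts; 1 gene that the rule names is not reported here.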

Additional observations from a re-analysis of the deposited data

How the results depend on the processing

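Of 495 refits of single members under 15 alternatives, 471 stayed on the same side of the threshold and 24 passed it where the edgeR fit had not. In 18 members the sign was the same in every fit. Against 491 genes passing, there were 1438 with no filter, 996 with DESeq2, 5722 with a replicate block, 4523 with GC correction, 6282 with both, and 243 to 2497 when 1 library was left out. Members passing as higher (0) were 4 with the block, 1 with GC correction and 2 with both. Members passing as lower (0) were 1 with no filter, 4 with the block, 2 with GC correction and 7 with both. The 1 with no filter was HNRNPAB (edgeR adjusted p 0.0457). Other regulators passing as higher (1) were 0 with library totals only or limma-voom and 2 with DESeq2. There were 6 with the block, 2 with GC correction and 8 with both. Those passing as lower (0) were 1 with no filter, 1 with DESeq2, 7 with the block, 6 with GC correction and 8 with both. The RBM25 log2 fold change ran from -1.96 to -1.53 with 1 library left out. Beside these counts, 16.4% of all genes passed as higher with the block, 12.8% with GC correction and 18.6% with both. The share as higher was 0.472% with library totals only, 0.522% with limma-voom and 2.38% with DESeq2. As lower, 3.23% of all genes passed with no filter, 4.12% with DESeq2, 19.1% with the block, 15.4% with GC correction and 20.4% with both. The cause of the differences between fits was not tested. With 1 library left out, the lone library is assumed to vary like the other group. Library totals without TMM moved the median of all genes from -0.04 to -0.15 and of the members from -0.12 to -0.23, with 9 members above 0.

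The replicate numbers are only numbers in the labels, and there are 2 pairs. Deviations of same-numbered libraries correlated at 0.67 across genes. With the block, TARDBP, HNRNPR, HNRNPDL and HNRNPA3 passed as higher and PTBP3, RALY, HNRNPAB and HNRNPUL2 as lower, while 16.4% and 19.1% of all genes passed.

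With 2 libraries a group, intervals of 13 members reach beyond a log2 change of 1. Family shares from counts without division by length separated or overlapped between groups as the FPKM shares did.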
